A study of Mus musculus with 6 samples.

Results

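The ERBB receptors and their ligands were followed in PAM212 cells with and without overexpression of the microRNA miR-28-3p. The 10 genes are the receptors Egfr, Erbb2 and Erbb3 and the ligands Areg, Ereg, Hbegf, Tgfa, Btc, Epgn and Nrg1, taken by symbol from the 21936 genes of the deposited expression table. Each symbol was found once, and 9 of the 10 had enough counts to be tested, Ereg being the exception. PAM212 is a mouse cell line labelled as keratinocytes, and all 6 samples were grown in DMEM with serum. In the overexpression group, 3 libraries came from PAM212 cells infected with a lentivirus that carried the mouse miR-28-3p gene. In the control group, 3 libraries came from PAM212 cells whose treatment label reads as untreated, while the titles of these samples begin with NC. The sources used here do not give the vector status of these cells. If these controls were not infected, infection itself and miR-28-3p cannot be told apart. Nothing in the labels ties the libraries to separate cultures, so the p-values measure only the spread between these libraries, which may be technical. The sources used here do not give whether the infected cells were a pool or a clone.

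ERBB receptors are membrane tyrosine kinases that work in pairs. EGFR binds a set of small growth factors made as membrane-anchored precursors, which are cut free by metalloproteases, and a bound receptor pairs with a partner and turns on the RAS-ERK and PI3K-AKT routes. ERBB2 has no known ligand of its own and acts as the shared partner, whereas ERBB3 binds neuregulins and has a weak kinase, so it depends on its partner. In skin, keratinocytes make several of these ligands themselves and use them for proliferation, migration and wound closure.

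The overexpressed RNA is a microRNA, and its sequence is shown because its seed (bases 2 to 8, in capitals) gives the word that was searched for in the members. The labels name miR-28-3p of the mouse. RefSeq on GRCm38.p6 holds this arm as mmu-miR-28a-3p, on the plus strand of chromosome 16 at 24827908 to 24827929, with the 5p arm of the same hairpin at 24827868 to 24827889.
mmu-miR-28a-3p: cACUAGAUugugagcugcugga
mmu-miR-28a-5p: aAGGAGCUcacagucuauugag
The arms have different seeds. The word that pairs with the 3p seed is ATCTAGT, and it occurs in 1249 of 20701 annotated 3′ UTRs (6.03%), each gene being searched in its longest annotated 3′ UTR of GENCODE M21. The word for the 5p seed, AGCTCCT, occurs in 15.21% of them.

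Among the 10 members, Egfr and Erbb3 each hold the 3p word once. The sites are shown with 10 bases on either side and the matching 7 bases in capitals, 5′ to 3′ on the strand of the gene.
Egfr, chr11:16912860-16912866 (+): tataccctaaATCTAGTgtaaaccaca
Erbb3, chr10:128569248-128569254 (−): caagaatgccATCTAGTtcttggagat
The Egfr site starts at base 1005 of a 3′ UTR of 6303 bases in Egfr-201, and the Erbb3 site at base 114 of 1845 bases in Erbb3-201. Bases were counted from the first one after the stop codon, and both sites lie in the last of 28 exons. Neither extends to the 8-base word ATCTAGTA, which is present in 1.35% of UTRs. The shorter word TCTAGT, present in 24.86% of UTRs, was found 3 times in Ereg and once in Hbegf, neither of which holds the longer word. The 3′ UTRs of Erbb2, Areg, Tgfa, Btc, Epgn and Nrg1 hold neither word. A match is a description of the sequence only, and the 2 genes with the 3p word moved in opposite directions, as described for the receptors.

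The 5p word was found in 3 members, shown in the same way because Egfr holds both words.
Egfr, chr11:16914543-16914549 (+): atctacaaagAGCTCCTatcattatac
Erbb2, chr11:98437318-98437324 (+): tctgacacacAGCTCCTcctggagtga
Epgn, chr5:91034449-91034455 (+): tgaatgtctcAGCTCCTtgagtgaacc
The Egfr match is the longer 8-base word AGCTCCTA, held by 2.29% of UTRs.

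Promoter windows of RefSeq (GRCm38.p6), reaching from 250 bases before the annotated start to 50 after it, were found for 6 members: Egfr, Erbb2, Areg, Tgfa, Btc and Epgn. They were searched on both strands for the AP-1 word TGANTCA, the CRE word TGACGTCA and the TEAD word GGAATG, which occur in 7.81%, 1.79% and 14.66% of 32851 windows. Areg holds 1 CRE word and Erbb2 holds 1 TEAD word, and these letters are not present in the other 4 windows. The Areg window is printed because it carries the rarest of the searched words, in capitals.
Areg, chr5:91139349-91139648 (+): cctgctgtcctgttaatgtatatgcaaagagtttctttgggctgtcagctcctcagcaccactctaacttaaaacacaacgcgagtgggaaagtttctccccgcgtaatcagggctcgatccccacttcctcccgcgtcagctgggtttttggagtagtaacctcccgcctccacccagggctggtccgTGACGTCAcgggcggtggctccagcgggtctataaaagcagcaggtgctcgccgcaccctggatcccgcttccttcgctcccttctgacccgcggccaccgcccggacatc
No binding was measured in these samples.

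The control libraries held 14706283 to 15385151 counted reads and the overexpression libraries 14309898 to 16383374, so depth overlapped between the groups. Averaged over counted reads, gene length was 5090.8 to 5118.6 bases in the controls and 6021.2 to 6049.7 bases with overexpression, without overlap. Values were therefore also computed with the trend of fold change on gene length removed, and with the trend on length and GC content removed. Most of the transcriptome differed between the groups. Of 11809 genes tested with edgeR's quasi-likelihood test (adjusted p under 0.05, Benjamini-Hochberg), 42.1% were called higher and 43.9% lower with overexpression. The median log2 fold change of all tested genes was -0.03, and upper quartile scaling moved that median by -0.23 to -0.26 with 33.5% called higher and 53.2% lower. No batch is named in the labels, and if one ran along with the groups, it and the overexpression cannot be told apart.

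Markers of the labelled cell type were in part missing. Krt5, the basal keratin, had 0 counts in all 6 libraries, and Trp63, the basal epidermal transcription factor, stood at 0.879, 1.12 and 1.4 CPM in the controls and at 0, 0.33 and 0 with overexpression. Krt15, another basal keratin, summed to 1005 counts in the controls and 0 with overexpression. The epithelial genes Cdh1, Itga6, Krt14, Perp and Itgb4 were detected in both groups, the first 3 called higher and Perp and Itgb4 called lower. Cdh1 stood at a mean of 381.8 CPM in the controls and 532.0 with overexpression. Perp stood at 220.5 and 152.1 CPM, and Itgb4 at 197.2 and 141.4 CPM. Of 9 tested keratinocyte markers, 4 were called higher and 5 lower, near the shares of all tested genes (42.1% and 43.9%), and their summed level was 991.6 to 1003 CPM in the controls and 1184 to 1216 with overexpression.

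Melanocyte markers, which matter because the design text names melanocytes, summed to 8.05 to 9.78 CPM in the controls and 7.33 to 8.22 with overexpression. Tyr and Kit had 0 counts in every library, and Tyrp1 and Dct had 0 counts in the controls and 40 and 31 summed counts with overexpression. Most of the sum was Mitf, at a mean of 7.02 CPM in the controls and 4.92 CPM with overexpression. Both tested markers of the 8, Mitf and Pmel, were called lower, where 43.9% of all tested genes were called lower and 42.1% higher. Fibroblast markers summed to 43.3 to 52.0 CPM and then 16.2 to 17.1, nearly all of it Pdgfra, with Lum at 0 counts throughout and Col1a2 at 0 in the controls. Immune markers summed to 18.3 to 21.3 CPM and then 4.74 to 6.53, nearly all of it Cd68, with Cd3e at 0 throughout and Ptprc at 0 in the controls. Endothelial markers summed to at most 0.568 CPM in any library. The part of these marker differences in the results on ERBB genes was not tested, and in these bulk libraries fewer cells of a type and less RNA per cell cannot be told apart.

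Within the family, the measured ligands were mostly higher with miR-28-3p overexpression while the 2 more abundant receptors were lower. Of 9 tested members, Egfr, Areg, Hbegf, Tgfa, Epgn and Nrg1 were called higher, Erbb2 and Erbb3 lower, and Btc was not called. Under TMM scaling these changes ranged in size from 1.29-fold for Erbb2 to 3.58-fold for Nrg1. For 5 members all overexpression libraries exceeded all controls, and for 2 they were all lower. Over all tested genes these shares were 42.2% above and 43.8% below, so that a call or a lack of overlap in a single member is common in this comparison. Against a minimum change of 1.5-fold, 4 members remained higher (Egfr, Hbegf, Tgfa and Nrg1) and 1 lower (Erbb3), where 23.4% and 27.0% of all tested genes passed. This minimum was tested under TMM scaling only, and Tgfa passed narrowly (adjusted p = 0.0418, edgeR). Under upper quartile scaling the log2 fold change of Tgfa was 0.42 and that of Erbb2 -0.60. Of the 10 members, 7 have an adjusted p under 0.05 in the authors' deposited table. The share of all genes under 0.05 there was not computed. In edgeR 42.1% of all tested genes were called higher and 43.9% lower, so such a count is common in this comparison. The authors' deposited table gives Epgn, Btc and Ereg adjusted p-values of 0.335, 0.68 and 0.835.

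**Figure D1:**
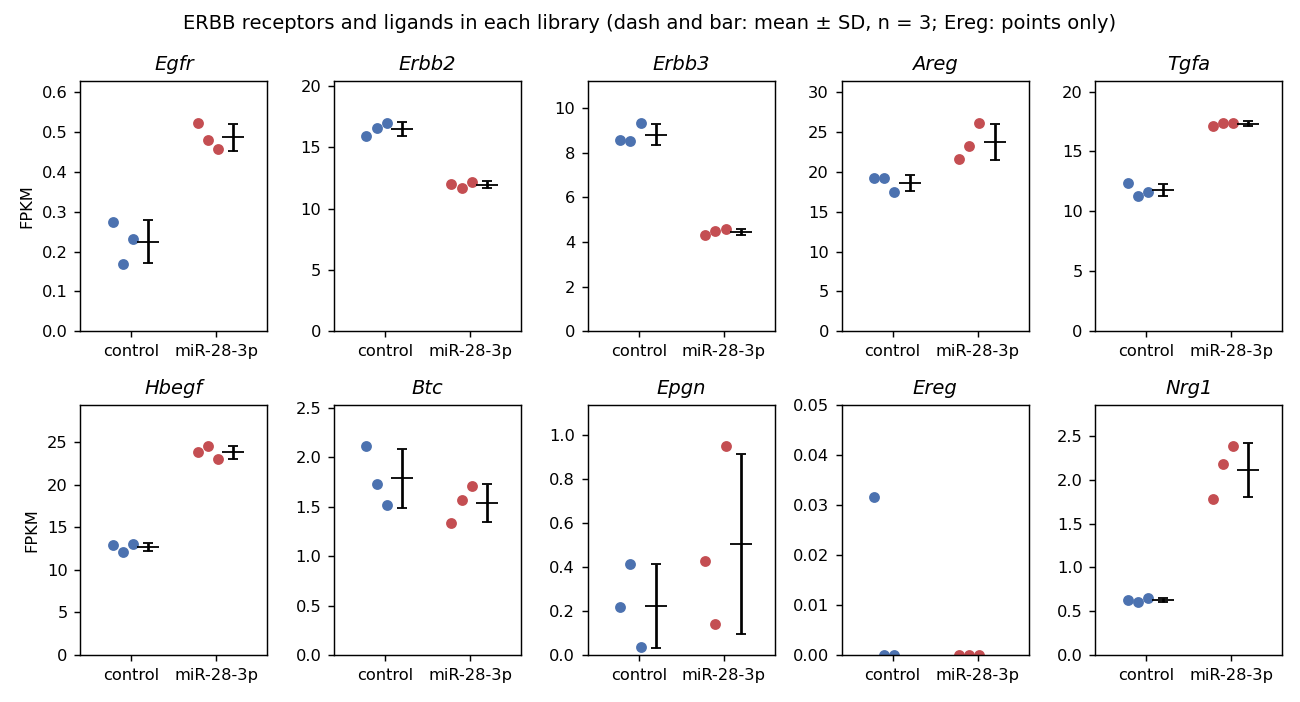
FPKM (counts scaled by gene length and library size, vertical axes differ by panel) of each member in the 3 control and 3 overexpression libraries, with a dash and bar for the mean ± SD (n = 3), and points only for Ereg. Hbegf, Tgfa, Areg, Nrg1 and Egfr lie higher in all 3 overexpression libraries, Erbb2 and Erbb3 lie lower, and Btc and Epgn overlap.

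FPKM, which is scaled by gene length, sets the levels of different genes side by side. In the controls the order of FPKM levels was Areg at 18.66 ± 0.99 (SD, n = 3), Erbb2 at 16.49 ± 0.54, Hbegf at 12.69 ± 0.49, Tgfa at 11.78 ± 0.53 and Erbb3 at 8.81 ± 0.46. The ranges of Hbegf and Tgfa overlapped there, although Hbegf was above Tgfa within each control library (ratios of 1.04, 1.07 and 1.12). Erbb2 (15.9 to 17) lay just under Areg (17.5 to 19.3). Below these came Btc at 1.79 ± 0.30, Nrg1 at 0.63 ± 0.03, and then Egfr at 0.225 ± 0.054 and Epgn at 0.222 ± 0.189, which overlapped. With overexpression Hbegf, at 23.79 ± 0.75 FPKM, and Areg, at 23.75 ± 2.28, overlapped at the top. Tgfa followed at 17.33 ± 0.18, Erbb2 at 11.96 ± 0.28, Erbb3 at 4.46 ± 0.14 and Nrg1 at 2.11 ± 0.31. Nrg1 thus stood above Btc, at 1.54 ± 0.20 FPKM, in each of the 3 overexpression libraries and under it in each control library. Epgn, at 0.504 ± 0.408, and Egfr, at 0.487 ± 0.034, again overlapped at the low end.

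Egfr, the receptor for most of the ligands measured here, rose from a very low level. The gene (ENSMUSG00000020122) lies on the plus strand of chromosome 11 at 16752203 to 16918158 of GRCm38. Its counts were 48, 28 and 40 in the controls and 85 in each of the 3 overexpression libraries. On the CPM scale (counts scaled to a common library size with TMM, the library scaling of edgeR) this was 3.02, 1.85 and 2.54 against 6.13, 5.61 and 5.37. The groups did not overlap, and the single highest control library was still well under the lowest overexpression library. Egfr rose 2.3-fold (log2 fold change 1.199 ± 0.206, SE), with a 95% interval of 0.79 to 1.61 and an adjusted p of 4.2e-07 in edgeR. The size depends on gene length, Egfr being long at 11326 bases. With the length trend removed the log2 fold change was 0.65 (adjusted p = 0.0034 in edgeR), and with the length and GC trend removed it was 0.50 (adjusted p = 0.024).

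Erbb2, the ligandless partner, fell by a small amount under TMM scaling. Its gene (ENSMUSG00000062312) lies on the plus strand of chromosome 11 at 98412470 to 98437716. Erbb2 stood at 80.2, 83.8 and 85.8 CPM in the controls and at 64.6, 62.7 and 65.8 CPM with overexpression. The groups did not overlap, and the libraries within each group were close together. For Erbb2 the log2 fold change was -0.37 ± 0.05 (SE, interval -0.47 to -0.27), 1.29-fold lower, with an adjusted p of 3.82e-10 in edgeR. This call is not kept when the length and GC trend is removed (log2 fold change -0.06, edgeR adjusted p = 0.238). It did not pass the 1.5-fold minimum, which was tested under TMM scaling only. The fall was larger under upper quartile scaling (-0.60, edgeR adjusted p = 1.59e-17) and with the length trend removed (-0.46, edgeR adjusted p = 2.27e-14). An exon of Erbb2 overlaps an exon of Mien1 on the opposite strand. Mien1 stood at only 1.05 CPM in the controls and 0.357 CPM with overexpression, and the sources used here do not give whether the counting used strand.

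Erbb3, the neuregulin receptor, fell further than Erbb2. It lies on the minus strand of chromosome 10 at 128567523 to 128589652 (ENSMUSG00000018166). Erbb3 stood at 49.8, 49.7 and 54.5 CPM in the controls and at 26.8, 27.9 and 28.5 CPM with overexpression. The overexpression libraries were close together and far under every control library. For Erbb3 the log2 fold change was -0.89 ± 0.07 (SE, interval -1.02 to -0.76), 1.85-fold lower, with an adjusted p of 3.2e-19 in edgeR. Erbb3 and Egfr are the members with the 3p seed word, so the 2 receptors with a match differed in direction.

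The receptor make-up shifted accordingly in FPKM. The 3 receptors summed to 25.5 ± 0.92 FPKM in the controls and 16.9 ± 0.32 with overexpression. Erbb2 took 64.6 ± 0.87% of that sum in the controls and 70.8 ± 0.59% with overexpression, while Erbb3 took 34.5 ± 0.73% and 26.4 ± 0.72%. Egfr took 0.883 ± 0.224% and 2.89 ± 0.23%, so it remained the smallest part of the receptor RNA. The ratio of Erbb2 to Erbb3 FPKM was 1.86, 1.94 and 1.82 in the controls and 2.79, 2.6 and 2.67 with overexpression. The ratio of Erbb2 to Egfr FPKM was 57.8, 98.6 and 73.4 in the controls and 22.9, 24.3 and 26.6 with overexpression. These ratios are descriptions of RNA and were not tested. The change of the Erbb2 to Egfr ratio is smaller in the fits that remove trends, since with length and GC removed Egfr stood at 0.50 and Erbb2 at -0.06 (log2 fold change), against 1.199 and -0.37 with TMM.

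Nrg1 encodes neuregulin, the ligand of ERBB3, and had the largest fold change of the called members under TMM scaling. The gene (ENSMUSG00000062991) spans chromosome 8 from 31814551 to 32884797 on the minus strand. Nrg1 stood at 9.42, 9.04 and 9.78 CPM in the controls and at 28.3, 34.7 and 38.0 CPM with overexpression. The control libraries were nearly equal and the overexpression libraries were more spread, with no overlap. For Nrg1 the log2 fold change was 1.84 ± 0.10 (SE, interval 1.64 to 2.04), 3.58-fold, with an adjusted p of 2.15e-25 in edgeR. At 15433 bases Nrg1 is the longest member, and its log2 fold change was 1.14 with the length trend removed and 0.98 with the length and GC trend removed, called in both. An unlisted transcript, Gm26578, overlaps an exon of Nrg1 on the opposite strand.

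Hbegf encodes heparin-binding EGF-like growth factor, a ligand of EGFR, and rose 2.0-fold. The gene (ENSMUSG00000024486) lies on the minus strand of chromosome 18 at 36504927 to 36515805. Hbegf stood at 60.4, 56.9 and 61.1 CPM in the controls and at 119, 123 and 115 CPM with overexpression. The groups were far apart relative to the spread within them. For Hbegf the log2 fold change was 0.998 ± 0.045 (SE, interval 0.91 to 1.09), with an adjusted p of 6.01e-29 in edgeR. Hbegf is close to the median length of the tested genes, at 4834 against 4526 bases, and its log2 fold change stayed at 0.96 with the length trend removed and 1.03 with the length and GC trend removed.

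Tgfa encodes transforming growth factor alpha, the autocrine EGFR ligand of keratinocytes, and rose less than Hbegf. Its gene (ENSMUSG00000029999) lies on the plus strand of chromosome 6 at 86195223 to 86275719. Tgfa stood at 77.6, 71.4 and 73.2 CPM in the controls and at 115, 117 and 117 CPM with overexpression. All 3 overexpression libraries were alike, and all were above the controls. The log2 fold change was 0.65 ± 0.04 (SE, interval 0.56 to 0.74), 1.57-fold, with an adjusted p of 4.64e-21 in edgeR, and it was 0.41 with the length trend removed.

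Areg encodes amphiregulin, an EGFR ligand abundant in cultured keratinocytes, and is the shortest member at 1215 bases. The gene (ENSMUSG00000029378) lies on the plus strand of chromosome 5 at 91139599 to 91148432. Areg stood at 22.6, 22.7 and 20.6 CPM in the controls and at 27.3, 29.2 and 33 CPM with overexpression. The groups did not overlap, but the gap between them was narrower than for Hbegf or Tgfa. The log2 fold change was 0.44 ± 0.08 (SE, interval 0.28 to 0.61), 1.36-fold, with an adjusted p of 1.48e-06 in edgeR. It was 1.04 with the length trend removed and 0.77 with the length and GC trend removed, so these settings raise the value of the shortest member and lower those of the long members Egfr and Nrg1. It was 0.21 under upper quartile scaling, still called.

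Btc encodes betacellulin, which binds EGFR and ERBB4. It lies on the minus strand of chromosome 5 at 91357261 to 91402994 (ENSMUSG00000082361). Btc stood at 9.23, 7.58 and 6.67 CPM in the controls and at 6.2, 7.33 and 8.02 CPM with overexpression. The groups overlapped, with both the highest control and the lowest overexpression library at the extremes. The log2 fold change was -0.12 ± 0.15 (SE), and its interval of -0.41 to 0.18 leaves room for a change in either direction (adjusted p = 0.445, edgeR). Without control replicate 1 it was 0.02. Upper quartile scaling gave -0.35 (adjusted p = 0.025, edgeR) and removal of the length and GC trend gave -0.51 (adjusted p = 0.00107, edgeR), both called lower.

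Epgn and Ereg, which encode epigen and epiregulin, were at or near the limit of detection. Epgn (ENSMUSG00000035020, plus strand of chromosome 5, 91027464 to 91035215) had 6, 11 and 1 counts in the controls and 11, 4 and 28 with overexpression. The groups overlapped, and overexpression replicate 3 held most of the counts of its group. The log2 fold change of 1.29 ± 0.58 (SE, interval 0.13 to 2.46) was called with an adjusted p of 0.0351 in edgeR. The call was lost without overexpression replicate 3 (log2 fold change 0.43, adjusted p = 0.577), without overexpression replicate 1 (adjusted p = 0.0501), and without control replicate 1 (0.0731) or 3 (0.80, adjusted p = 0.18). It was also lost in DESeq2 (adjusted p = 0.0924) and under upper quartile scaling in edgeR (adjusted p = 0.0811). Ereg (ENSMUSG00000029377, plus strand of chromosome 5, 91074622 to 91093646) had 2, 0 and 0 counts in the controls and 0 in each overexpression library, and no fold is given. A count of 0 allows a level of up to 3 counts, or 0.183 to 0.21 CPM without TMM scaling depending on the library, for counting error only.

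**Figure D2:**
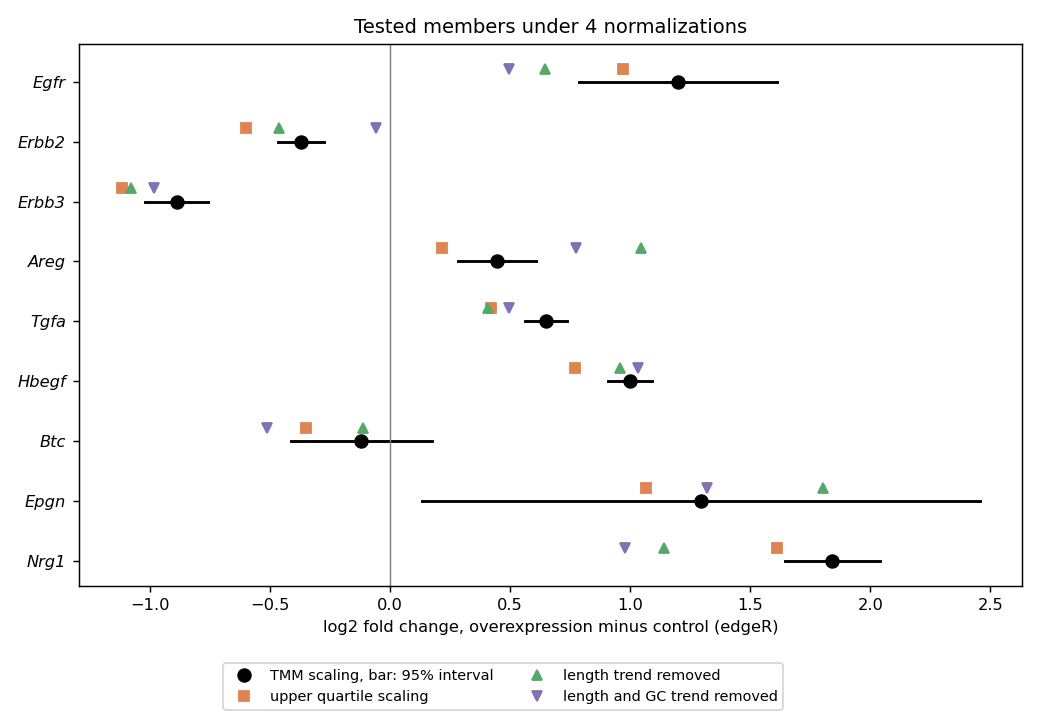
Log2 fold change (overexpression minus control, edgeR) of the 9 tested members under TMM scaling with its 95% interval (black) and under upper quartile scaling, removal of the length trend, and removal of the length and GC trend (coloured marks). The direction is shared by all 4 settings for each member, Erbb2 comes close to 0 with length and GC removed, and Egfr and Nrg1 move towards 0 when the length trend is removed while Areg moves away from it.

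The ligand make-up changed in FPKM as well. The ligands summed to 45.8 ± 1.58 FPKM in the controls and 69.0 ± 2.79 with overexpression, and 3 genes, Areg, Hbegf and Tgfa, made up nearly all of both sums. Areg took 40.4, 42.3 and 39.5% of the sum in the controls and 32.9, 33.7 and 36.6% with overexpression. Hbegf took 27.2, 26.7 and 29.4% in the controls and 35.9, 35.5 and 32.1% with overexpression. Areg was thus the first ligand by FPKM in every control library, while Hbegf was first in 2 of the 3 overexpression libraries and Areg in the remaining library. The share of Tgfa was 25.7 ± 0.68% and 25.1 ± 0.80%, which overlapped. Nrg1 went from 1.38 ± 0.08% to 3.05 ± 0.33% and Btc from 3.89 ± 0.52% to 2.22 ± 0.20%, neither pair overlapping, so that the share of Btc was lower although its level was not called. The gap between the changes in Areg and Hbegf depends on the gene length trend. With it removed the log2 fold change was 1.04 for Areg and 0.96 for Hbegf, and with length and GC removed it was 0.77 and 1.03. FPKM here rests on the full deposited gene length, which can understate a gene whose transcripts are short relative to it.

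**Figure D3:**
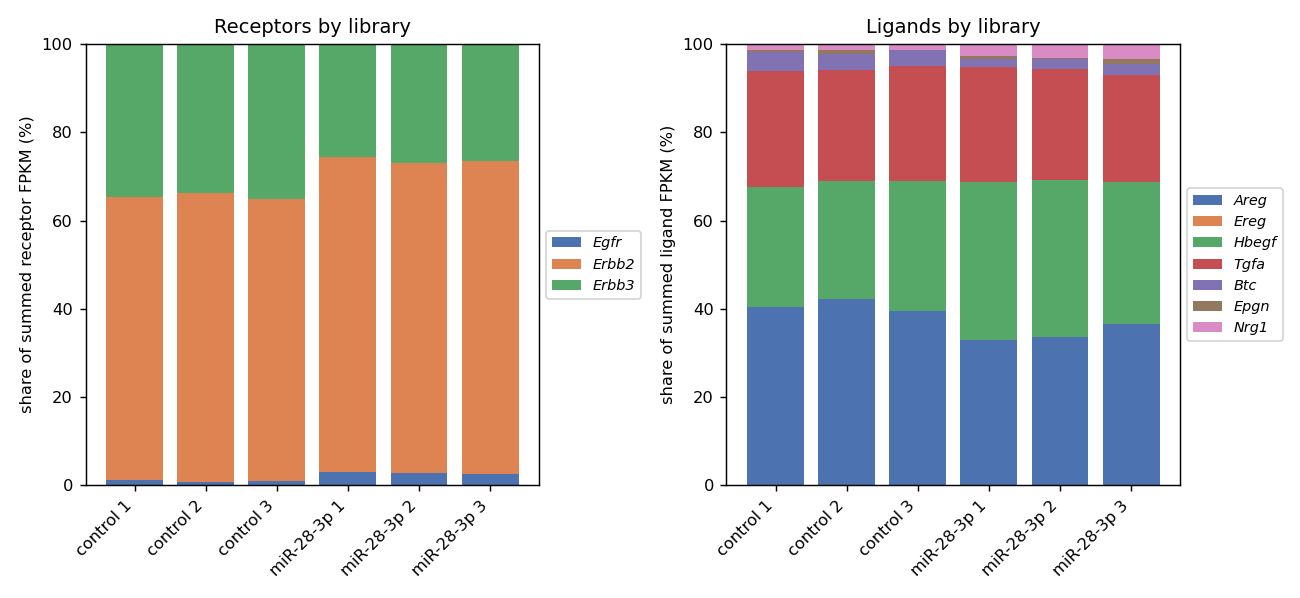
Share (%) of each gene in the summed FPKM of the 3 receptors and of the 7 ligands, one stacked bar per library. Erbb2 takes a larger and Erbb3 a smaller share in the 3 overexpression libraries. Among the ligands the share of Hbegf is larger and that of Areg smaller. With the length trend removed the changes of Hbegf and Areg were close (0.96 and 1.04, log2 fold change). With length and GC removed Hbegf again had the larger change (1.03 against 0.77).

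The genes of Epgn, Ereg, Areg and Btc lie side by side on chromosome 5 within 375.5 kb, from 91027464 to 91402994. Their response was unequal, since Areg rose, Epgn was called on few counts, Btc was not called and Ereg was nearly silent. Within 500 kb on either side the table lists 12 other genes, 8 of them tested, of which 4 were called higher and 2 lower against 42.1% and 43.9% of all tested genes. On the Epgn side lie 7 CXC chemokine genes, of which 3 were called higher. Ppbp was tested and not called, and Cxcl2, Cxcl15 and Pf4 had too few counts to be tested. Cxcl3 had a log2 fold change of 3.29 (adjusted p = 1.86e-24, edgeR), Cxcl5 one of 1.12 (adjusted p = 5.14e-05) and Cxcl1 one of 0.90 (adjusted p = 7.66e-25). Mthfd2l, a mitochondrial folate enzyme gene next to Epgn, was called at 0.21, but stood at -0.02 under upper quartile scaling and at -0.05 with the length trend removed, not called in either, and at -0.36, called lower, with length and GC removed. Rassf6 (-1.28) and Parm1 (-2.29) fell, and Albfm1, which lies beyond Rassf6, was not called (0.14, adjusted p = 0.768, edgeR).

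**Figure D4:**
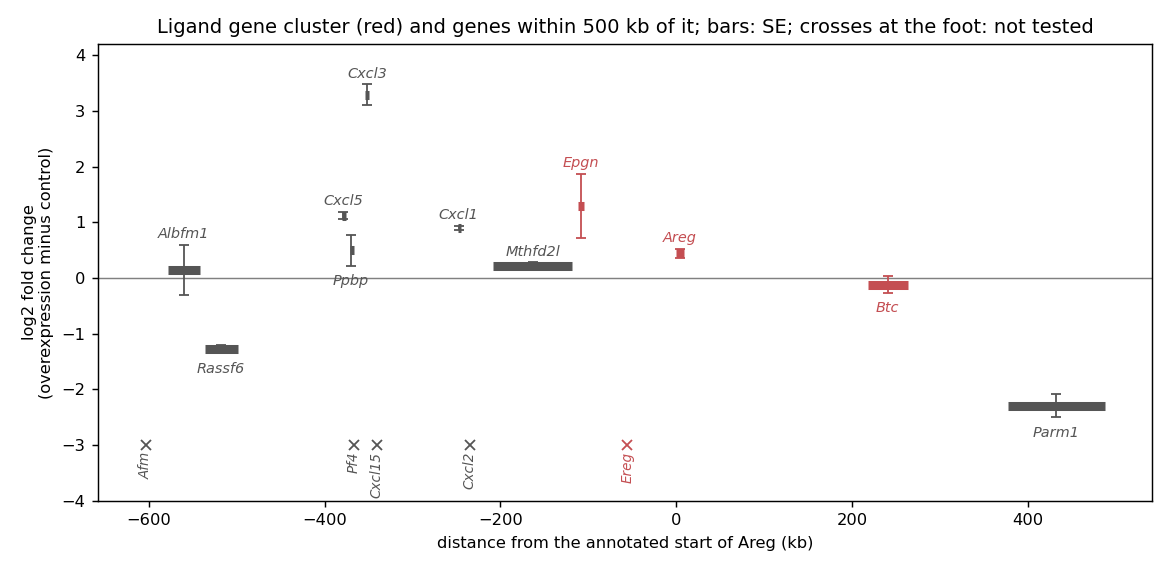
Log2 fold change (overexpression minus control, edgeR, bars show the SE) of genes within 500 kb of the ligand cluster, placed by distance in kb from the annotated start of Areg, with cluster genes in red and untested genes as crosses at the foot. The chemokine genes Cxcl3, Cxcl5 and Cxcl1 lie above 0, the cluster genes range from -0.12 for Btc to 1.29 for Epgn, and Rassf6 and Parm1 lie below 0.

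The family members outside the 10 genes were scarce. Erbb4, the fourth receptor, and Nrg3 had 0 counts in all 6 libraries. Egf, the founding ligand, had 38, 33 and 26 counts in the controls and 14, 22 and 19 with overexpression. Its log2 fold change was -0.75 ± 0.31 (SE), 1.69-fold lower, with an adjusted p of 0.0233 in edgeR. The Egf call was lost in DESeq2 (adjusted p = 0.0544) and in edgeR without control replicate 1 (0.0945) or 2 (0.0583), or overexpression replicate 1 (0.0854) or 3 (0.06). In edgeR the Egf fall was larger with the length trend removed (-1.30, adjusted p = 0.000119). It was also larger with length and GC removed (-1.24, adjusted p = 0.00025). Nrg2 had 42, 27 and 30 counts against 60, 35 and 45, which overlap, with a log2 fold change of 0.57 ± 0.26 (adjusted p = 0.0387, edgeR). The Nrg2 rise was larger in edgeR with the length trend removed (0.78, adjusted p = 0.00428) and with length and GC removed (1.34, adjusted p = 2.98e-06). The Nrg2 call was lost under upper quartile scaling (adjusted p = 0.216) and in DESeq2 (adjusted p = 0.0814). In edgeR it was also lost without control replicate 2 (adjusted p = 0.142) or 3 (0.105) and without overexpression replicate 1, where the log2 fold change was 0.29 (adjusted p = 0.348). Nrg4 was not called, at 0.36 with an interval of -0.21 to 0.93 (adjusted p = 0.231, edgeR). Leaving out a single overexpression library moved Nrg4 to 0.18 without replicate 1 (adjusted p = 0.598), to 0.65 without replicate 2, where it was called higher (adjusted p = 0.0362), and to 0.22 without replicate 3 (adjusted p = 0.537).

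Ligands of this family are released by proteases, and of the 11 listed genes of the release machinery 5 were called higher and 6 lower, against 42.1% and 43.9% of all tested genes. The median log2 fold change of the list was -0.24 against -0.03 for all tested genes, and it was -0.11 against -0.04 with the length trend removed. With that trend removed 5 were higher and 5 lower, where 4861 and 5208 of the 11809 tested genes were. Under upper quartile scaling 4 were higher and 6 lower, where 33.5% and 53.2% of all tested genes were. The listed rhomboid-related genes Rhbdf1, Rhbdf2 and Rhbdl2 were among the lower ones, with Adam8, Adam15 and Frmd8. Adam12, a metalloprotease known to cut HBEGF, stood at 3.57 ± 0.18 CPM (SD, n = 3) in the controls and 67.4 ± 2.5 CPM with overexpression, which is 18.9-fold (adjusted p = 1.33e-45, edgeR). Adam19 rose 5.52-fold and Adam9 1.66-fold, while Adam8 fell from 53.1 ± 2.9 to 20.5 ± 1.7 CPM. The main sheddases of the EGFR ligands, Adam17 and Adam10, are outside the naming rule and were chosen after their values were seen. Adam17 had 83.3 ± 1.6 CPM and 111.2 ± 1.9 CPM, 1.34-fold, but its log2 fold change was -0.07, not called, with length and GC removed. Adam10 was called higher at 1.17-fold, but stood at -0.004 (not called) under upper quartile scaling and at -0.15, called lower, with length and GC removed.

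The genes that restrain the receptors had a mixed response: of 12 listed, 6 were called higher, 3 lower and 3 not, against 42.1% higher and 43.9% lower among all tested genes. Errfi1, which encodes the EGFR inhibitor MIG6, rose from 234.5 ± 5.0 to 429.6 ± 2.5 CPM, 1.83-fold (adjusted p = 1.24e-38, edgeR). Cbl, a ubiquitin ligase that sends EGFR for degradation, rose 2.93-fold, Socs4 2.71-fold and Lrig1 1.43-fold. Cbl is long at 12345 bases, and its log2 fold change of 1.55 was 0.955 with the length trend removed, still called. The 3 called lower, which are outside the naming rule, were Lrig2 (1.43-fold), Hgs (1.37-fold) and Sh3kbp1 (1.24-fold). The median log2 fold change of this list was 0.14 against -0.03 for all tested genes. Under upper quartile scaling it was -0.09 against -0.26. Of the list 5 were then called higher and 6 lower, where 33.5% and 53.2% of all tested genes were.

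Of 24 listed genes between the receptors and ERK or AKT, 13 were called higher, 10 lower and 1 not, against 42.1% higher and 43.9% lower among all tested genes. The median log2 fold change of the list was 0.34 against -0.03 for all tested genes. It was 0.11 against -0.26 under upper quartile scaling and 0.08 against -0.04 with the length trend removed. Mapk3, which encodes ERK1, fell from 241.5 ± 9.0 to 69.9 ± 2.5 CPM, 3.45-fold (adjusted p = 1.27e-46, edgeR). Ptpn11, the phosphatase SHP2 needed for RAS activation, rose 2.34-fold, and Pik3cb, a catalytic subunit of PI3K, rose 2.94-fold.

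Genes known to respond to ERK signalling were called higher in 11 of 17 cases, lower in 5 and not in 1, with a median log2 fold change of 0.27. The shares over all tested genes were 42.1% and 43.9%. Under upper quartile scaling 7 were higher and 8 lower, where 33.5% and 53.2% of all tested genes were, and the list median of 0.04 moved along with the median of all genes, from -0.03 to -0.26. Ccnd1, the cyclin of the G1 phase, rose from 360.9 ± 11.2 to 1346 ± 8 CPM, 3.73-fold (adjusted p = 3.7e-59, edgeR). Fosl1, the AP-1 subunit FRA1, rose 6.15-fold and Myc 1.64-fold. Spry1, a feedback inhibitor of receptor kinases, fell 2.66-fold, from 85.9 ± 2.9 to 32.3 ± 0.9 CPM. The list therefore holds large changes in both directions, and Ccnd1, Fosl1, Myc and Spry1 kept their direction and call under every alternative computed for them.

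**Figure D5:**
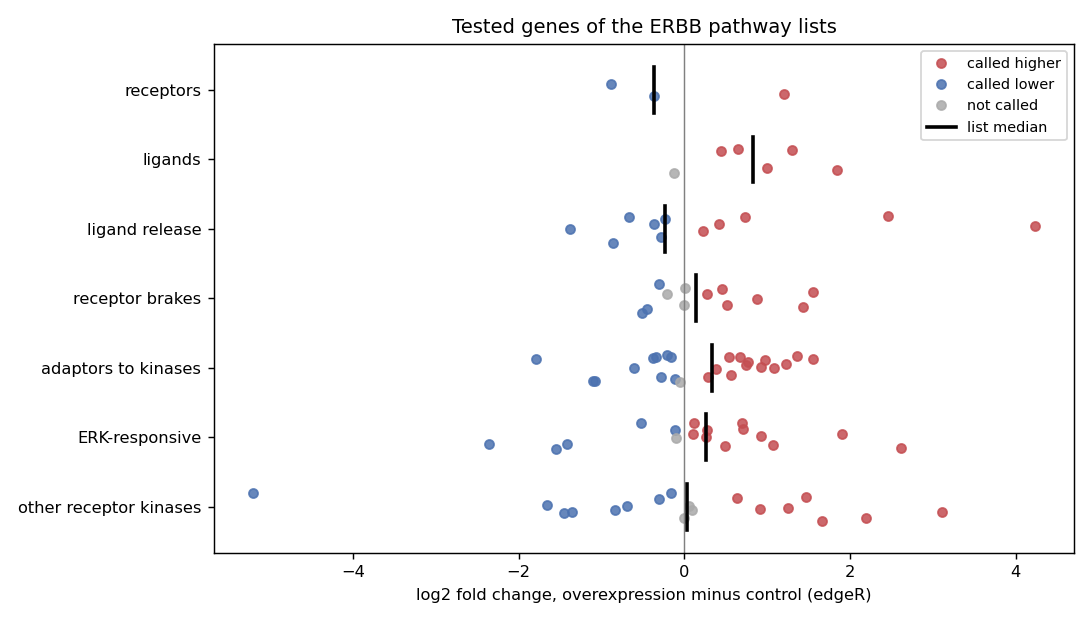
Log2 fold change (overexpression minus control, edgeR with TMM) of each tested gene in the receptor, ligand, release, restraint, kinase route, ERK-responsive and other receptor kinase lists, with the median of each list as a bar. The ligands lie mostly above 0 with a median of 0.82, while the release, restraint and route lists spread to both sides.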

How the data were processed

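Polyadenylated RNA of 6 PAM212 samples was sequenced from libraries made with a TruSeq kit, per the labels' protocols. The authors deposited whole-number read counts per gene and FPKM, and counts divided by the deposited gene length and the column total gave each FPKM back. The authors' deposited comparison holds log2 fold changes and adjusted p-values. Per the submitters' processing notes the tools were HISAT2, HTSeq and DESeq, with no version given. The notes name mm9, but 21681 of 21936 listed genes have the coordinates of GENCODE M21 on GRCm38 (21894 matched by identifier), so coordinates here are those of GRCm38.

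Counts were tested with edgeR 4.0.16 in R 4.3.3, using filterByExpr (minimum count 10, 11809 genes left), TMM scaling, the robust quasi-likelihood F test over all 6 libraries and an adjusted p under 0.05 as the threshold. The SE is the log2 fold change divided by the square root of F. The biological coefficient of variation was 2.93%. The fit was also run on simulated counts in which few genes were changed, equally up and down. In the real data most genes were called, so that run does not bear on the scaling used here. Alternatives were upper quartile scaling, DESeq2 1.42.0, no filter, a 1.5-fold minimum, each library left out, the replicate number as a block, limma 3.58.1 on log2(FPKM + 1) or log2(FPKM + 0.1) with a mean FPKM filter of 0.5 or none, and removal of a trend on gene length, or on length and GC content (known for 99.93% of tested genes). A fold change on the log2(FPKM + pseudocount) scale understates the change of low genes.

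The members, gene lists and tests were chosen with earlier results of these data known. All members and the rest of the family are named, with up to 4 called genes of smallest p per list, called neighbours of the ligand cluster, and markers at 0 or leading their list. PCR can copy a molecule more than 1 time, so limits on a count of 0 cover counting error only. Some listed genes that the rule takes are not reported here. Protein sequences were not used here.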

Additional observations from a re-analysis of the deposited data

How the results depend on the processing

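Each member was refitted under up to 16 alternatives, which gave 140 values for the 9 tested members. Of these, 125 kept the direction and the side of the threshold, 12 kept the direction and lost the call, 2 gained a call and 1 reversed. Egfr, Erbb3, Hbegf, Tgfa and Nrg1 kept their direction and call in every alternative computed for them. The members called numbered 5 against the 1.5-fold minimum, run under TMM scaling only, in place of 8, with 1 lower in place of 2. All genes called then numbered 2762 higher and 3185 lower in place of 4975 and 5184. Leaving out each library in turn gave 7 to 8 members called, 5 to 6 higher and 2 lower, with 4912 to 4957 of all genes higher and 5104 to 5161 lower. In that range Egfr ran from 1.03 to 1.37, Erbb2 from -0.40 to -0.34, Erbb3 from -0.91 to -0.84, Areg from 0.37 to 0.51, Hbegf from 0.97 to 1.03, Tgfa from 0.62 to 0.69, Nrg1 from 1.75 to 1.96, Btc from -0.22 to 0.019 and Epgn from 0.43 to 2.07 (log2).

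The reversed values were 0.019 for Btc without control replicate 1 and, with length and GC removed, -0.076 for Nrg4, -0.071 for Adam17, -0.15 for Adam10 and -0.36 for Mthfd2l. Under upper quartile scaling Adam10 was at -0.004 and Mthfd2l at -0.019, and with the length trend removed Mthfd2l was at -0.045 (the cause was not tested). With upper quartile scaling 7 ERK-responsive genes were higher and 8 lower in place of 11 and 5, and 6 restraining genes were lower in place of 3 (5 with the length trend removed). Of all tested genes, upper quartile scaling called 33.5% higher and 53.2% lower, in place of 42.1% and 43.9%. Under that scaling 0 of the scarce family members were called higher in edgeR in place of 1 (Nrg2), with 0 at an unadjusted p under 0.05, and DESeq2 called 0 with 0 unadjusted.

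Pairing by replicate number was looked for in log CPM after the group mean of each gene was subtracted. These deviations correlated at -0.0048, -0.0031 and -0.031 (Pearson) between same-numbered libraries and at -0.0157 to 0.0216 between differently numbered ones. No pairing by number was seen, but these values cannot exclude one. With the replicate number as a block 7 members were called, 5 of them higher, the call of Epgn being lost (1.22, adjusted p = 0.0586, edgeR), with 4955 of all genes higher and 5161 lower. Depth limits Ereg and Epgn, which have few or no counts.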

Other observations

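Receptor tyrosine kinases outside the ERBB family changed in both directions. Of 22 listed genes, 18 were tested, and 7 were called higher, 8 lower and 3 not, against 42.1% higher and 43.9% lower among all tested genes. Fgfr2, a receptor for keratinocyte growth factor, stood at 12.9 ± 0.9 CPM (SD, n = 3) in the controls and 111.1 ± 6.6 CPM with overexpression, 8.63-fold (adjusted p = 1.69e-46, edgeR). Met, the receptor for hepatocyte growth factor, rose 4.58-fold to 294.4 ± 2.6 CPM, and Epha2, an ephrin receptor, rose 3.16-fold to 542.1 ± 3.6 CPM. Axl, the GAS6 receptor, rose 2.77-fold to 1297 ± 7 CPM. Fgfr1, another fibroblast growth factor receptor, which was chosen after its values were seen, fell from 594 to 15 summed counts, or from 12.7 ± 1.9 to 0.339 ± 0.131 CPM (log2 fold change -5.21, adjusted p = 1.94e-27, edgeR). For comparison, Egfr reached 5.70 ± 0.39 CPM with overexpression. The median log2 fold change of the list was 0.03 against -0.03 for all tested genes. It was -0.20 against -0.26 under upper quartile scaling, and -0.41 against -0.04 with the length trend removed.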
